A study of Homo sapiens with 7 samples.

Results

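SPI1, SPIB, FLI1, ERG, ETS1, ETS2, ETV6, ELF1, GABPA and FEV encode transcription factors of the ETS family, and the peaks that ChIP-seq placed at these 10 genes are described here. The genes were chosen by name, out of 20163 protein-coding genes and 28 ETS family genes of the annotation. In ChIP-seq an antibody pulls a protein or a modified histone out of lysed cells, and the DNA attached to it is sequenced. All libraries came from log-phase, untreated Kasumi-1 cells, a myeloblast line from peripheral blood that carries the t(8;21) translocation and expresses the fusion protein AML1-ETO. The groups are the antibodies. The AML1 antibody recognises the C-terminus, which the fusion lacks, AML1-ETO was recovered with an antibody to ETO, and N-CoR, p300 and H3K4me3 were each recovered with their own. Each antibody has 1 list of peaks, made from pooled biological replicates of this single line, so there is no error between replicates and no test between libraries. The lists hold positions without a score or read count, and the depth behind a single peak is therefore unknown.

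ETS proteins bind DNA through a shared domain that reads a GGAA core. PU.1, the product of SPI1, drives the formation of myeloid cells and B cells, and its level is set by the promoter together with an upstream regulatory element that RUNX1 (AML1) binds. FLI1 and ERG act in blood stem cells and in the vessel wall. N-CoR is a co-repressor that works with histone deacetylases, p300 is a co-activator that acetylates histones, and H3K4me3 marks promoters where transcription starts.

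A summit is the base 50 bp into a deposited window of 100 bp, and it was assigned to a gene when it lay in the gene body or within 5 kb of it. A wider view took all summits within 50 kb. By the first rule the 10 genes held 95 of the 70435 peaks. AML1-ETO gave 22 of these, H3K4me3 gave 20, AML1 and N-CoR gave 19 each, and p300 gave 15. The place of a peak in its list is given as its peak number, without knowledge of what set that order. Coordinates refer to GRCh37 (hg19) and are counted from 1.

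The sequences below are 100 bp windows around AML1-ETO summits on the forward strand of GRCh37. They show upstream and intron sites of SPI1, and for the other genes the window with the lowest AML1-ETO peak number among those shared with another protein. The SPI1 enhancer and intron windows and the FLI1 window shared by 4 proteins were added after their values had been seen. Capitals mark the Runx letters TGTGGT, the PU.1 letters GAGGAA and the ETS letters AGGAAG and CCGGAA on either strand, and GAGGAA and AGGAAG can overlap.
SPI1 upstream enhancer, chr11:47416426-47416525: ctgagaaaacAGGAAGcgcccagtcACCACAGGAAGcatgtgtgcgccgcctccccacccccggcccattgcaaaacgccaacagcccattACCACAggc
SPI1 intron, chr11:47381307-47381406: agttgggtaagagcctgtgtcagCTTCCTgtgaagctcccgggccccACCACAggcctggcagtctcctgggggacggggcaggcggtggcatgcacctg
SPI1 most upstream, chr11:47429845-47429944: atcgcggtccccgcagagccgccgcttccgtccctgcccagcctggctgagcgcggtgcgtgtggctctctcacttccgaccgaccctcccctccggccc
FLI1 intron site of 4 proteins, chr11:128565893-128565992: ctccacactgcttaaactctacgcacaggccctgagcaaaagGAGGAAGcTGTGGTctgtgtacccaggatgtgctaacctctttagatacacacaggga
FLI1 lowest peak number, chr11:128595618-128595717: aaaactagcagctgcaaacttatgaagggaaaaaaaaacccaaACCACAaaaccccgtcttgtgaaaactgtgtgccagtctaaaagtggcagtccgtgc
ERG, chr21:39759063-39759162: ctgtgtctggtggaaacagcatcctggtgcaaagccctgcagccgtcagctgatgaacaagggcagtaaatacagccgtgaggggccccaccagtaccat
ETV6, chr12:11801789-11801888: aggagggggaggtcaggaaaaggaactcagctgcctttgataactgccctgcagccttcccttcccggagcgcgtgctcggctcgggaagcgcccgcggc
ELF1, chr13:41579130-41579229: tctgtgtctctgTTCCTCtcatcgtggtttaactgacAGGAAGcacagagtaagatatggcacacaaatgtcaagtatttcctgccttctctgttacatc

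AML1-ETO was found at 6 of the 10 genes, SPI1, FLI1, ERG, ETS1, ETV6 and ELF1, and at 41.3% of all protein-coding genes. N-CoR was found at 6 of 10 (26.7% of all genes), AML1 at 8 (34.9%), p300 at 8 (45.5%) and H3K4me3 at 9 (68%). SPI1, FLI1, ERG, ETV6 and ELF1 held all 4 proteins, 5 of 10 genes, where 15.4% of protein-coding genes did. ETS1 held AML1-ETO alone of the proteins, ETS2 held p300 alone of the proteins, and FEV held only AML1. AML1-ETO outnumbered AML1 at SPI1, FLI1, ERG and ETS1, 4 of 10 genes, and at 24.7% of all genes. It had fewer summits than AML1 at SPIB, ETV6, GABPA and FEV, also 4 of 10, and equal counts at ETS2 and ELF1. The share of all genes with fewer was not counted. The AML1-ETO list is also the longer, with 18087 peaks against 11692. These counts are descriptions of named genes, and nothing was tested across them.

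**Figure D1:**
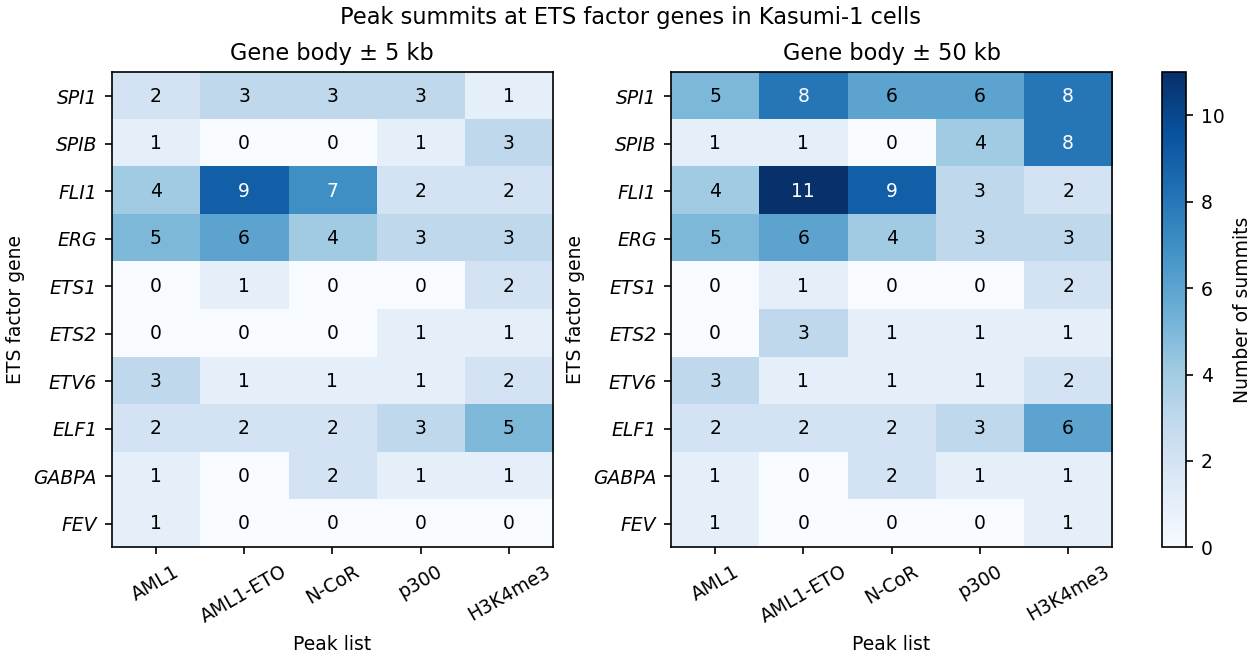
Number of peak summits of each list (columns) at each ETS factor gene (rows), within 5 kb of the gene body on the left and within 50 kb on the right, with darker cells for more summits. FLI1 has the highest counts of AML1-ETO and N-CoR within 5 kb, 9 and 7, and SPI1 rises from 3 to 8 AML1-ETO summits in the wider view. Per 100 kb of the 5 kb window SPI1 held more, 8.905 of each, against 6.582 AML1-ETO and 5.119 N-CoR summits at FLI1.

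Gene length bears on these counts, since a longer window has room for more summits. FLI1, ERG, ETS1, ETV6 and ELF1 have windows over 100 kb with the flanks, and all 5 held AML1-ETO, against 57.8% of the genes in this length class. AML1, N-CoR and p300 were each at 4 of these 5, against 50.6%, 39.2% and 46.7% of the class, and H3K4me3 was at all 5 (76%). SPI1 and GABPA have windows of 30 to 100 kb, and both held AML1, N-CoR, p300 and H3K4me3, which 37.4%, 28.5%, 52.1% and 75.9% of that class did. AML1-ETO was at SPI1 and not at GABPA (44.7% of the class). SPIB, ETS2 and FEV have windows under 30 kb, and none of these 3 held AML1-ETO or N-CoR, against 30.6% and 19.1% of their class. AML1, p300 and H3K4me3 were each at 2 of the 3, against 25%, 39.1% and 57.1%. Per 100 kb of window, the 10 genes carried 1.98 AML1-ETO and 1.71 N-CoR summits, and all protein-coding genes carried 1.035 and 0.564. The other 18 ETS genes carried 2.05 AML1-ETO and 1.19 N-CoR summits per 100 kb, an AML1-ETO density close to that of the 10. For H3K4me3 the values were 1.80 at the 10 genes, 3.34 at the other 18 ETS genes and 1.57 at all genes.

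**Figure D2:**
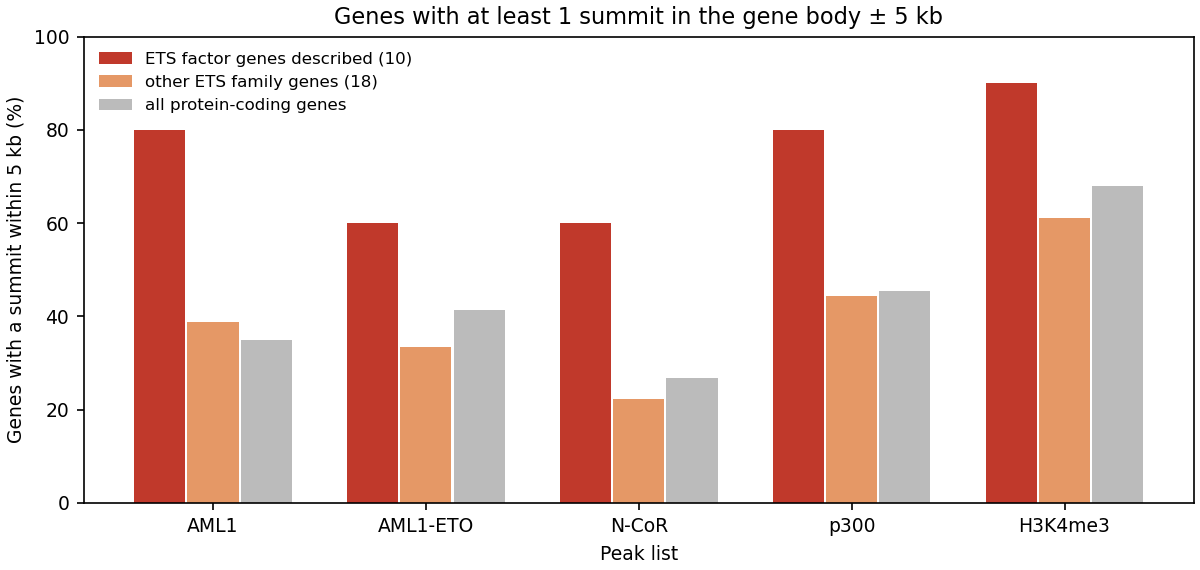
Percent of genes (vertical axis) with at least 1 summit of each list (horizontal axis) within 5 kb of the gene body, for the 10 genes described, the other 18 ETS family genes and all 20163 protein-coding genes. The bars of the 10 genes are the tallest in every list, from 60% for AML1-ETO and N-CoR to 90% for H3K4me3, and gene length was not held equal between the bars.

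Windows of the 4 proteins were merged into sites where they shared at least 1 bp, which gave 33 sites at the 10 genes. The same rule gave 29083 sites at all protein-coding genes, each counted once for every gene whose window held it. All 4 proteins met at 9 of the 33 sites, 27.3% (exact 95% interval 13.3 to 45.5%), against 7.21% of the sites at all genes. A single protein was at 13 sites, 39.4% (22.9 to 57.9%), against 60.5%, and without SPI1 or without FLI1 this interval included the share at all genes. AML1-ETO was that protein at 6 of these, 18.2% of the 33 sites, against 21.9%. Sites of AML1-ETO with N-CoR and no other protein numbered 4 of the 33, all at FLI1, which also held 9 of the 22 AML1-ETO summits. The share of such sites at all genes was not counted, so they cannot be called particular to FLI1. At the 9 sites of 4 proteins the outermost summits lay between 24 and 82 bp apart, with a median of 43 bp.

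The sites were divided by their distance from transcription starts and H3K4me3. An annotated coding start of the gene lay within 1000 bp of 11 sites (44.8% of the sites at all genes), an H3K4me3 summit within 1000 bp of 14 (56.1%), and both of 10 (40.7%). Neither was near 18 sites, here called distal, of which 11 belong to FLI1 and ERG. At all protein-coding genes 39.8% of the sites were distal. AML1-ETO was part of 15 of the 18 distal sites (78.1% of distal sites at all genes), N-CoR of 12 (42.8%), AML1 of 12 (47.1%) and p300 of 6 (18.8%). At the 11 sites near a start p300 was part of 7 (63% of such sites at all genes), N-CoR of 6 (20.8%), AML1-ETO of 5 (38.9%) and AML1 of 4 (28%). Of the sites with all 4 proteins, 6 of 9 were distal (52.4%). The frequent AML1-ETO at distal sites and p300 near starts was thus also found over all genes. The exact 95% interval at the 10 genes included the share at all genes for the counts near starts and H3K4me3, the distal counts and the proteins in each class, except N-CoR near starts, 54.5% (23.4 to 83.2%). That exception rests on few sites. It was 5 of 10, 50% (18.7 to 81.3%), without a GABPA site that lies nearest to the start of ATP5PF, the same without ETV6, and 4 of 9, 44.4% (13.7 to 78.8%), without GABPA, and these intervals include the 20.8%. Sites of one gene share a locus and are not independent of each other, so no test was made on these counts, and whether the classes differ in their proteins was not tested.

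Of the 22 AML1-ETO summits at the 10 genes, 15 overlapped an N-CoR window, 68.2% (exact Clopper-Pearson 95% interval 45.1 to 86.1%), and 38.9% of all AML1-ETO summits did. AML1 overlapped 12, 54.5% (32.2 to 75.6%), against 46.2% of all, a value inside the interval. p300 overlapped 9, 40.9% (20.7 to 63.6%), against 21.8% of all, just inside the interval. No other protein overlapped 6, 27.3% (10.7 to 50.2%), against 38.3% of all. The intervals cover counting error over peaks only, and 15 of the 22 summits belong to FLI1 and ERG. Without FLI1 the N-CoR share was 8 of 13, 61.5% (31.6 to 86.1%), and within 50 kb of the genes it was 18 of 33, 54.5% (36.3 to 71.9%), so both intervals included the 38.9% of all. The p300 share was 53.8% (25.1 to 80.8%) without FLI1, 42.9% (21.8 to 66.0%) without ETS1 and 30.3% (15.6 to 48.7%) within 50 kb. Without FLI1, or without ETS1 by a narrow margin, its interval no longer included the 21.8% of all. Each of the 9 summits with p300 also overlapped N-CoR and AML1, so the share with all 3 was again 40.9%, against 11.8% of all AML1-ETO summits. Within 50 kb it was 30.3% (15.6 to 48.7%). The 9 summits within 5 kb lie in the 9 sites of all 4 proteins counted above, so both counts describe the same places. AML1-ETO with p300 and without N-CoR was found at 0 of 22 summits, which allows a share of up to 13.6% by a limit of 3 counts and up to 15.4% by the exact interval, and at 6.1% of all. N-CoR without p300 was found at 6 summits, 27.3% (10.7 to 50.2%), close to the 23.2% of all. An H3K4me3 summit lay within 1000 bp of 6 summits, 27.3%, where the share of all was 27.4%.

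**Figure D3:**
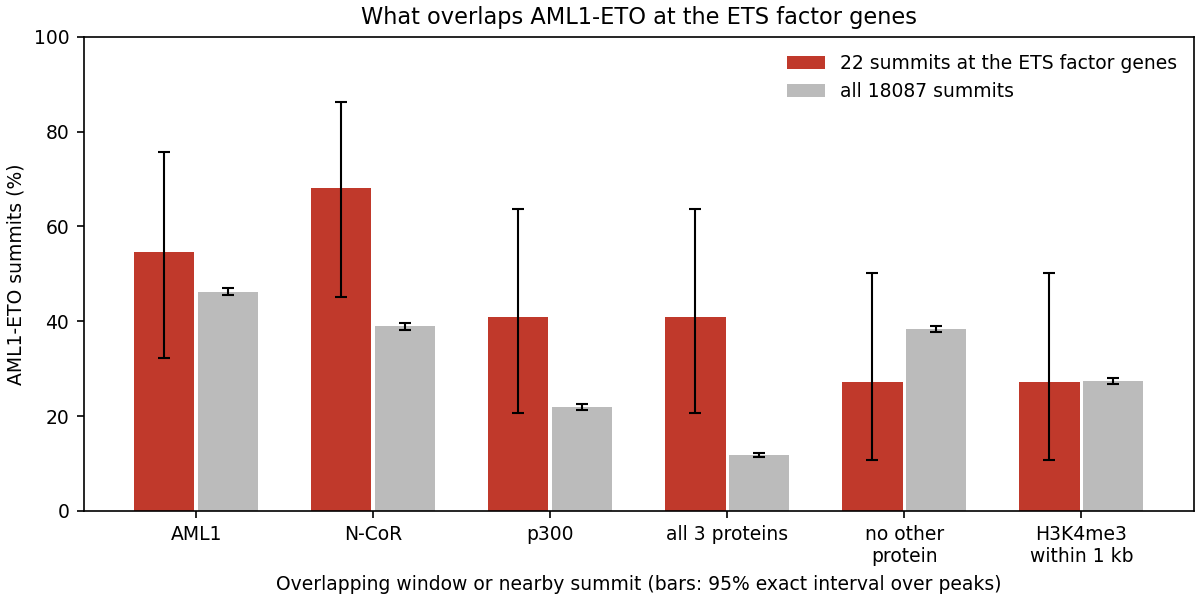
Percent of AML1-ETO summits (vertical axis) that overlap each protein, overlap all 3 or none, or lie within 1 kb of H3K4me3, for the 22 summits at the ETS factor genes and all 18087 summits, with 95% exact intervals as error bars. The N-CoR share of 68.2% and the share with all 3 proteins of 40.9% have intervals above the shares of all summits, for N-CoR not without FLI1 nor within 50 kb, and the intervals of the AML1 share of 54.5% and the p300 share of 40.9% include them, for p300 not without FLI1 nor without ETS1.

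SPI1 (chr11:47376411-47400098, reverse strand) encodes PU.1 and had 3 summits each of AML1-ETO, N-CoR and p300, 2 of AML1 and 1 of H3K4me3 within 5 kb, at the promoter and at a pair of intron sites, and further sites upstream. At the promoter, N-CoR peak 8056 and p300 peak 4325 shared a site next to the canonical start. AML1-ETO peak 6311 also lay at the promoter, 102 bp from the p300 summit, just too far for the windows to overlap. The H3K4me3 summit, peak 2792, lay 369 bp downstream of the start in an intron. The nearest AML1 summit was 1922 bp from the AML1-ETO summit at the promoter.

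All 4 proteins met inside SPI1 at a pair of intron sites. The first lay 1791 bp downstream of the start (chr11:47398222-47398391), with AML1 peak 10773, AML1-ETO peak 10180, N-CoR peak 4936 and p300 peak 6339. The second lay 18746 bp downstream (chr11:47381261-47381442), with lower peak numbers, 4878, 828, 747 and 675 in the same order. The AML1-ETO window of the second holds a Runx match that spans the summit base. No H3K4me3 summit lay within 1000 bp of either site. This second site is nearer to a start of MYBPC3, at 7104 bp from the AML1-ETO summit, than to a start of SPI1.

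Upstream of SPI1, the site in the position of the upstream regulatory element held all 4 proteins 16365 bp before the start (chr11:47416399-47416527). Its summits lay within 29 bp of each other. They were AML1-ETO peak 99 of 18087, p300 peak 102 of 11020, N-CoR peak 217 of 10004 and AML1 peak 381 of 11692, so that each lay within the first 3.26% of its list. Among the 2133 AML1-ETO summits that overlapped the other 3 proteins, 23 had all of their peaks at this place in the lists or earlier, this site included. The window holds the Runx letters at a pair of positions and the ETS letters AGGAAG at a pair of positions, and one Runx match shares its last base with the first of an AGGAAG match. H3K4me3 summits flanked it, peak 16415 at 16083 bp and peak 16563 at 16873 bp upstream of the start. They came late in their list of 19632, whereas that of the SPI1 promoter came at 2792.

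None of the remaining upstream sites of SPI1 held all 4 proteins. AML1-ETO alone lay 14768 and 21605 bp upstream, peaks 12378 and 14886, the latter 121 bp from an H3K4me3 summit. At 9725 bp upstream AML1-ETO peak 16473 was followed 107 bp further by N-CoR peak 8728, so their windows did not overlap. At 29775 bp upstream, AML1, AML1-ETO and N-CoR shared a site (chr11:47429771-47429974) with AML1-ETO peak 109, and this site lies at a start of SLC39A13, 240 bp from the AML1-ETO summit. p300 peak 4756 lay next to it, 197 bp from the AML1-ETO summit, in a window that did not overlap the site. At a start of PSMC3, p300 peak 1345 and AML1 peak 7019 lay 47587 and 47885 bp upstream of SPI1. Of the 21 summits between 5 and 50 kb from SPI1, 19 were nearer to a coding start of another gene, the enhancer site among them, and the lists do not say which gene a distal site acts on.

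**Figure D4:**
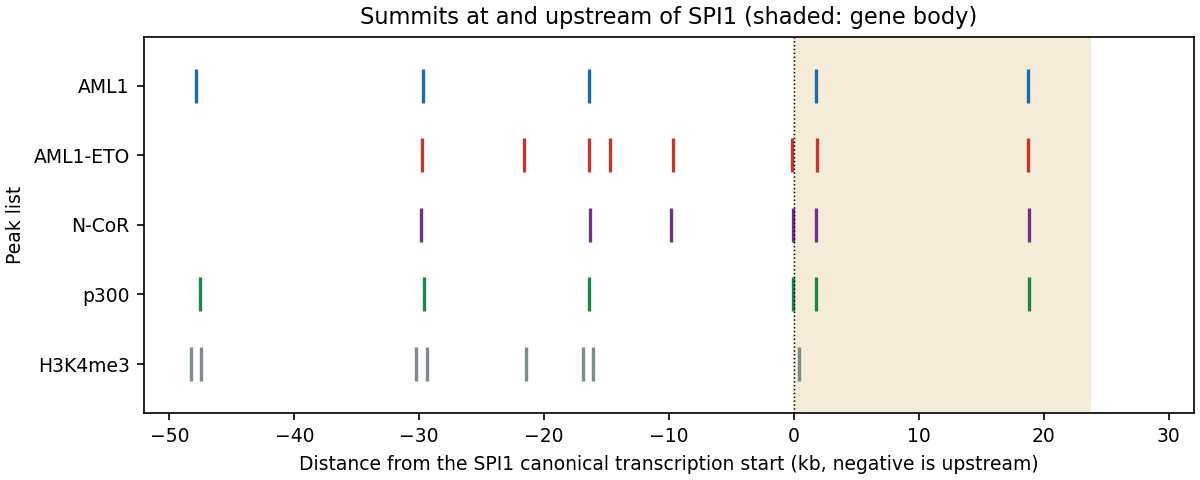
Summits of the 5 lists (rows) by distance in kb from the canonical SPI1 start, with the gene body shaded and upstream to the left. Marks of the 4 proteins line up about 16 kb upstream and at a pair of places in the gene, with H3K4me3 at the start and around the upstream site.

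FLI1 (chr11:128556430-128683162, forward strand) had the most AML1-ETO and N-CoR summits of the 10 genes, 9 and 7, beside 4 of AML1, 2 of p300 and 2 of H3K4me3. In its length class, 1.95% of genes had as many AML1-ETO summits or more, and 1.51% as many N-CoR summits or more. All 4 proteins met at the promoter, 67 bp upstream of the canonical start and in an exon of another transcript (chr11:128563838-128563961). There p300 peak 222 and N-CoR peak 329 stood early in their lists, while AML1-ETO peak 7009 and AML1 peak 8998 did not. The other site with all 4 lay 1988 bp downstream in an intron (chr11:128565893-128566016). AML1 and N-CoR had their summits there on the same base, and the AML1-ETO window holds GAGGAA and TGTGGT close together near the summit. H3K4me3 summits lay 728 and 2292 bp downstream of the start.

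Away from the FLI1 start, p300 was not listed inside the gene. The intron sites at 11676, 24865 and 32861 bp downstream held AML1-ETO with N-CoR, as did that 3060 bp upstream of the canonical start, and AML1-ETO stood alone 2052 bp upstream of it. The site at 31681 bp (chr11:128595578-128595717) added AML1 and had AML1-ETO peak 441 and N-CoR peak 717. AML1-ETO with AML1 and no co-regulator lay 69302 bp downstream. In all, 7 of the 9 AML1-ETO summits overlapped N-CoR, 4 overlapped AML1 and 2 overlapped p300. In the wider view 2 more AML1-ETO summits appeared, 15803 and 37206 bp upstream. N-CoR peak 7345 lay 100 bp from the latter, so their windows met without overlapping, and a site of N-CoR with p300 lay 32926 bp upstream.

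ERG (chr21:39751949-40033704, reverse strand), the closest relative of FLI1, had 5 AML1, 6 AML1-ETO, 4 N-CoR and 3 p300 summits, and none of its 7 sites lay within 1000 bp of a coding start. All 4 proteins met at 3 intron sites, 21928, 111302 and 113569 bp downstream of the canonical start. The lowest AML1-ETO peak number of these was 2211, at 111302 bp (chr21:39759035-39759162), where AML1 and AML1-ETO summits were 2 bp apart and the window holds none of the letters marked by capitals. The sites at 111302 and 113569 bp lie nearer to a coding start of KCNJ15, at 90251 and 87984 bp, than to one of ERG. A site 8308 bp upstream of the canonical start, in an intron of longer transcripts, held AML1, AML1-ETO and N-CoR. AML1-ETO stood alone 31002 bp downstream. Past the end of the gene, AML1 and AML1-ETO summits 488 bp apart flanked an H3K4me3 summit. H3K4me3 also marked starts, with a summit 523 bp downstream of the canonical one and a summit 283 bp upstream of a more distal one. Nothing further was listed within 50 kb.

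**Figure D5:**
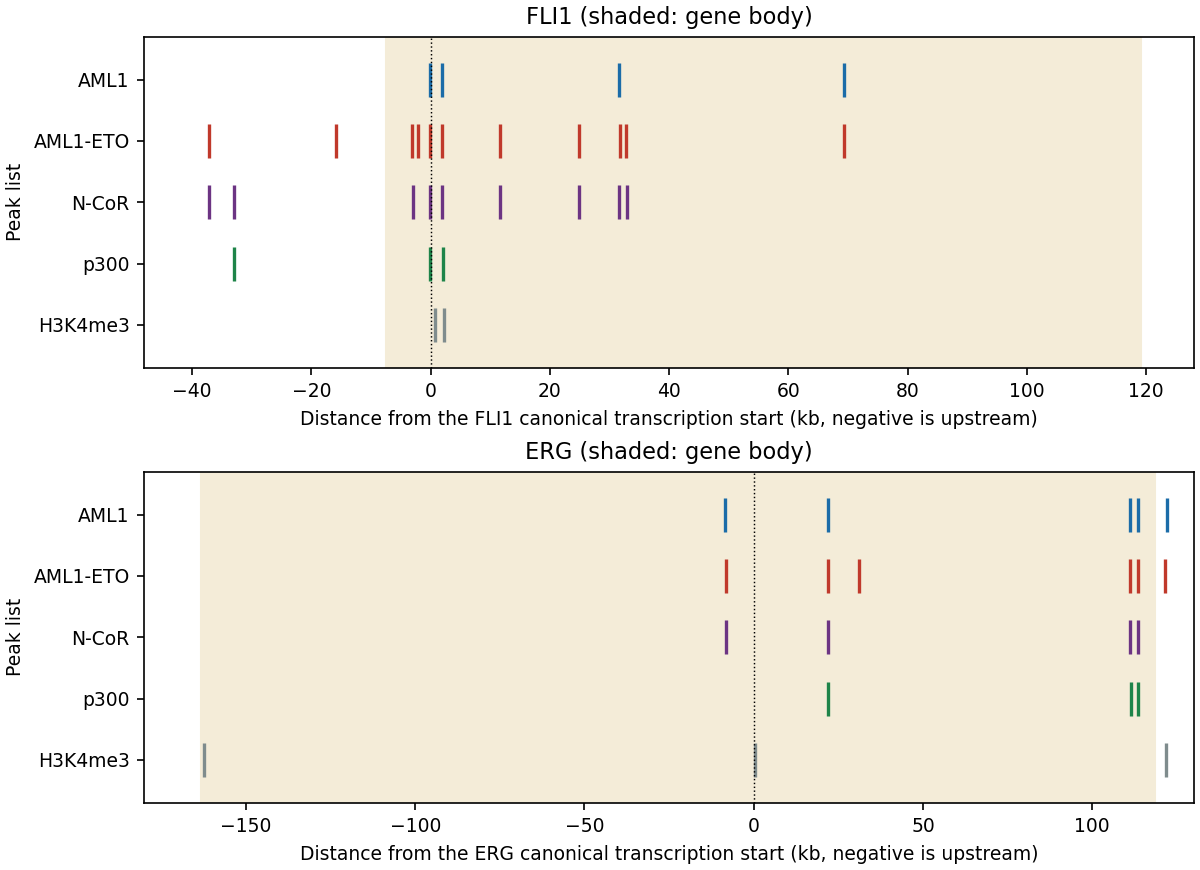
Summits of the 5 lists (rows) by distance in kb from the canonical start of FLI1 (top) and ERG (bottom), with gene bodies shaded. At FLI1 p300 is listed only around the start and upstream of the gene while AML1-ETO and N-CoR run on through the introns, and at ERG the shared sites lie 21928 bp or more downstream or 8308 bp upstream of the start.

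ETS1 (chr11:128328656-128457453) and ETS2 (chr21:40177107-40196879) encode the founding members of the family. At ETS1, AML1-ETO peak 9697 stood alone in an intron, 26562 bp from the nearest coding start. H3K4me3 summits lay 13 bp downstream of an internal start and 397 bp upstream of a different internal start. They were 65307 and 64851 bp downstream of the canonical start, which no H3K4me3 summit marked. At ETS2, p300 peak 2060 had its summit on the base of the canonical start, with H3K4me3 peak 3284 at 662 bp downstream. AML1-ETO appeared at ETS2 only in the wider view, at 3 places, and that 50050 bp upstream overlapped N-CoR peak 7902.

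ETV6 (chr12:11802608-12048311) encodes a repressor needed for blood stem cells in the bone marrow. Its promoter site, 803 bp upstream of the start (chr12:11801722-11801888), held all 4 proteins, with AML1-ETO peak 4714 and AML1 peak 10042. H3K4me3 summits lay 350 bp upstream and 486 bp downstream of the start. AML1 alone was listed 149387 and 230947 bp downstream, in introns, so that ETV6 held 3 AML1 summits and 1 of AML1-ETO.

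ELF1 (chr13:41506060-41635576) encodes an activator of blood and endothelial genes and has several promoters. H3K4me3 had 5 summits, and 2.89% of the genes in its length class had as many or more. At the longest transcript's start, AML1, N-CoR and p300 shared a site 13 bp downstream (chr13:41635480-41635645), and AML1-ETO peak 16425 lay 127 bp from the AML1 summit, outside that site. Its window holds CCGGAA. p300 alone lay 21 bp from the canonical start. All 4 proteins met in an intron 14288 bp downstream of the canonical start (chr13:41579099-41579229), where AML1 peak 3157 came earlier in its list than AML1-ETO peak 13812 in its own.

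GABPA (chr21:27106881-27144771) encodes the DNA-binding subunit of GA-binding protein, a regulator of basal and mitochondrial genes. AML1, N-CoR and p300 shared a site 5 bp from the canonical start (chr21:27107208-27107347), and N-CoR alone lay 644 bp downstream. AML1-ETO was not listed within 50 kb. p300 peak 1454 and H3K4me3 peak 1199 came early in their lists. The gene ATP5PF starts in the opposite direction next to it, 23 bp from the lone N-CoR summit, so these sites cannot be given to one of the pair.

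SPIB (chr19:50922195-50934571), the relative of SPI1 that acts mainly in B cells and plasmacytoid dendritic cells, held no summit within 5 kb of its own start. AML1 and p300 shared a site in an exon, 9257 bp downstream (chr19:50931387-50931517), and 3 H3K4me3 summits, peaks 18540, 16800 and 13257, lay from there to beyond the gene's end, the nearest coding start being that of MYBPC2. All 9 summits between 5 and 50 kb were nearer to starts of other genes. FEV (chr2:219845809-219849906), known from serotonergic neurons, had AML1 peak 11425 alone, past its end and 5052 bp from its start, and no H3K4me3 within 5 kb.

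For each set of letters and each protein, the share of all windows lay inside the exact Clopper-Pearson 95% interval of the share at the 10 genes. AGGAAG was in 11 of 22 windows, 50% (28.2 to 71.8%), and in 37.5% of all AML1-ETO windows. GAGGAA was in 8, 36.4% (17.2 to 59.3%), against 26% of all. TGTGGT was in 5, 22.7% (7.82 to 45.4%), against 31.3%. CCGGAA was in 1, against 7.35% of all, and the GGAA core alone in 20, against 84%. Runx and one of these ETS sequences occurred together in a window of SPI1, of FLI1 and of ERG, and some windows held none of the letters marked by capitals.

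The windows of the other proteins at the 10 genes held the same letters in small numbers. Of 19 AML1 windows, TGTGGT was in 6 (40.6% of all AML1 windows), GAGGAA in 4 (25.6%), AGGAAG in 6 (37.7%), CCGGAA in 0, which allows up to 15.8% by 3 counts and up to 17.6% by the exact interval (8.65%), and GGAA in 14 (85.6%). Of 19 N-CoR windows, TGTGGT was in 3 (19.5%), GAGGAA in 5 (30.8%), AGGAAG in 10 (46.2%), CCGGAA in 1 (9.93%) and GGAA in all 19 (90%). Of 15 p300 windows, TGTGGT was in 2 (6.66%), GAGGAA in 4 (17.7%), AGGAAG in 6 (25.1%), CCGGAA in 1 (14%) and GGAA in 14 (76.2%). Windows of proteins that share a site cover much of the same sequence. A match describes the letters only, and no match says nothing of the factor.

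Among the other 18 ETS family genes AML1-ETO was listed at 6, 33.3%, against 41.3% of all protein-coding genes. All 4 proteins were at 3 of the 18, ELF4, ELK3 and ETV7, where 15.4% of all protein-coding genes held them. The highest AML1-ETO counts were 6 at ELF4, 6 at ELK3 and 4 at ELF2, followed by 1 each at ELK1, ELK4 and ETV7. ELK3, a repressor that responds to Ras signalling, also had 5 N-CoR summits. ELF3, ELF5, ETV3L, SPDEF, EHF and SPIC, 6 genes of which several are known from epithelia, held no summit of any list. ETV1 and ETV4 held H3K4me3 without a protein. The shares of all genes with no summit of any list, or with H3K4me3 and no protein, were not counted. Measured by the summed difference of the 5 counts, the ETS genes most like SPI1 were ELF1 (6), then ELF4 and GABPA (7 each). This sum takes no account of gene length, and the window of ELF1 is 139.5 kb against 33.69 kb for SPI1. Nor does a small sum mean the same proteins, as GABPA held 0 AML1-ETO summits against 3 at SPI1.

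Genes of ETS partners and PU.1 targets differed among themselves. IRF8, a partner of PU.1, held 3 AML1-ETO summits and 1 of AML1 without N-CoR, p300 or H3K4me3 within 5 kb. Within 50 kb IRF8 held 7 AML1-ETO, 3 AML1, 4 N-CoR and 2 p300 summits, still without H3K4me3, while its relative IRF4 held no summit within 50 kb. CSF1R, the receptor for macrophage colony-stimulating factor, held 5 AML1-ETO, 3 N-CoR, 2 AML1 and 2 p300 summits and no H3K4me3. CSF3R, the receptor for granulocyte colony-stimulating factor, held 2 AML1-ETO, 1 N-CoR, 3 p300 and 2 H3K4me3 summits and 0 of AML1, and ITGAM, an integrin of myeloid cells, held 2 each of AML1, AML1-ETO and N-CoR, 0 of p300 and 1 of H3K4me3. GABPB1, a partner of GABPA, held 1 summit of each list, and GABPB2 and BTK held AML1, p300 and H3K4me3 without AML1-ETO.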

How the data were processed

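The study's authors aligned reads to GRCh37 (hg19) with Bowtie 0.12.8, pooled the replicates and called peaks with MACS2 2.0.10.20131216 at a threshold of 1e-20. The deposited lists give positions only, as windows of 100 bp with a numbered name. No peak lay beyond a chromosome end of the reference used here. Genes came from GENCODE release 44 lifted to GRCh37. A gene's window was its body and 5 kb to either side, and 50 kb in the wider view. Windows overlapped when they shared at least 1 bp. The canonical start is that of the annotation's canonical transcript, and coding starts are those of protein-coding transcripts. Exons are those of any transcript. Motifs were searched on both strands of each window, mitochondrial peaks left out. All members were named, the other ETS genes by the 5 highest AML1-ETO counts (ETV7, tied with the last, was added after its value was seen), and likeness by summed differences of counts.

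The members and lists were chosen with earlier results of these data known. No test between libraries was possible. Of 2000 simulated peaks, the 600 made to overlap were all found again. One sequence that the naming rule selects is not reported here. Libraries of H3K27me3 and of input DNA were not used here. Intervals came from SciPy 1.17.1 under Python 3.11.15, sequences were read by pysam 0.24.0 after indexing in samtools 1.23.1, and plots were drawn in matplotlib 3.10.9.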

Additional observations from a re-analysis of the deposited data

How the results depend on the processing

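Of 96 values recomputed with other settings for 22 results, 87 stayed within 1.5 times the count or within the interval of the share, and 9 moved. Taking only the first 5000 peaks of each list moved 7 of these. It left 6 AML1 summits at 5 genes, 7 AML1-ETO summits, 9 p300 summits at 5 genes and 5 H3K4me3 summits at 5 genes, as fewer peaks were used. Counting H3K4me3 within 500 bp left 8 sites near it, and GGAA alone in place of GAGGAA was in 90.9% of the AML1-ETO windows. With each gene left out in turn, the AML1-ETO summits that overlapped N-CoR ranged from 61.5 to 71.4%, AML1 from 50 to 61.5% and p300 from 36.8 to 53.8%, the last without FLI1. SPIB, ETS2, GABPA and FEV hold no AML1-ETO summit within 5 kb, so leaving them out could not change these shares. The intervals are wide, 45.1 to 86.1% for N-CoR, so a share could stay inside after a large change. The share with all 3 proteins, recomputed after seeing the data and not among the 22, ranged from 36.8 to 53.8%, and each of its intervals lay above the 11.8% of all. The share of sites with all 4 proteins ranged from 23.1 to 29.2%, with intervals above the 7.21% at all genes. It counts the same 9 places over another total, so it is not separate support for the first share. Both sets of intervals cover counting error over peaks only, and peaks of one gene share a locus. A stricter peak threshold could not be applied to lists without a score. No paired analysis was possible because each antibody has a single pooled list, and leaving out a replicate was not possible for the same reason.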
